A study of Drosophila melanogaster with 46 samples.

Results

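The 37 genes described here drive DNA replication and the cell cycle in Drosophila melanogaster. They were chosen by name, all 37 were found in both deposited fold change tables, and they stand among 11297 genes tested in Pc mutant discs and 11009 tested with RNA interference (RNAi) against ph. By role, 14 are replication licensing genes, 9 act in G1-S control and S phase, 10 act in mitosis and 4 act in cell cycle exit. The series asks how Polycomb repressive complex 1 (PRC1), which keeps developmental genes silent, is used during fly development. Its files used here measure RNA and the binding of the PRC1 subunit PSC and of Su(z)12, a subunit of Polycomb repressive complex 2, in eye discs.

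Eye discs, the larval epithelia that form the adult eye, came from wandering third-instar (L3) larvae in every group used here. The Pc mutant group is labelled Mutant_PcXT109_FRT2A, strain PCxt109 mutant, with 2 replicates, and the labels do not name its control. The ph RNAi group (4 replicates) came from a cross of stock BL 64095 with VDRC50028, and the white RNAi group (4 replicates) from BL 64095 with BL33623, so the RNAi groups share stock BL 64095. What that stock drives, and in which cells, is not given in the labels, and neither is the share of mutant cells in Pc mutant discs. Each RNA replicate pooled about 150 discs, and the labels do not say whether replicates came from separate crosses, so p-values cover the spread between these samples only, which may be technical. PSC and Su(z)12 were mapped by chromatin immunoprecipitation and sequencing (ChIP-seq) in strain W1118 Oregon-R, with 2 replicates each of about 500 discs.

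Before S phase, the origin recognition complex (Orc subunits) marks replication origins, and dup (the fly Cdt1) helps load the Mcm2-7 helicase there, while geminin inhibits dup. E2f1 with its partner Dp activates S phase genes, Rbf (the fly retinoblastoma protein) restrains E2F, and E2f2 acts mainly as a repressor. In the eye disc, cells ahead of the morphogenetic furrow divide, cells in the furrow arrest in G1, and cells behind it divide once more or leave the cycle to become photoreceptors and other retinal cells.

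The targeted genes were lower in the group named for them. In the authors' deposited table for the Pc mutant, Pc had a log2 fold change of -1.64 ± 0.41 (± is the authors' standard error throughout, adjusted p = 0.00134). For ph RNAi, ph-p had -0.80 ± 0.04 and its neighbour ph-d -0.66 ± 0.05 in the authors' deposited table. The gene w, against which the control RNAi is directed, was higher in ph RNAi than in white RNAi discs, at 0.79 ± 0.12 by the authors' deposited table. The eye disc markers ey, eya, so, gl and elav had mean normalized counts above 200 in both deposited tables, so RNA of the labelled tissue was present. Signal of other tissues was present too, and far more of it in the table for Pc. Mean counts of the 6 muscle and myoblast markers summed to 119750 there and to 4761 in the table for ph. Those of the 5 fat body markers summed to 17447.5 and 1031. How much of such tissue each sample held is unknown. The files give 1 mean count per gene and comparison and no value per sample, so sequencing depth and the spread of single samples are unknown. Mean normalized counts of the 37 genes were 237 to 9643 in the table for Pc and 328 to 13035 in the table for ph.

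With ph RNAi, replication licensing genes rose together, genes of DNA synthesis rose with them, mitotic genes rose less, and several regulators of the cycle were lower or not called. At the authors' adjusted p under 0.05, 30 of the 37 genes were higher, 4 were lower and 3 were not called. That threshold called many genes in this comparison: 31.1% of all tested genes were higher and 34.9% were lower. All 37 genes have mean counts of 200 or more, a level at which 45.6% of 6780 tested genes were higher and 35.3% lower. For the size of the change, 14 of the 37 genes were higher with a log2 fold change of at least 1, against 5.05% of all tested genes and 4.97% of those with mean counts of 200 or more. With ribosomal protein genes set to 0, as described with the ranks of the genes, 5 of the 37 passed 1 log2 unit. The median log2 fold change of the 37 genes was 0.63, against 0.07 for tested genes with mean counts of 200 or more and -0.06 for all tested genes. The limits of 200 counts and of 1 log2 unit were chosen after values were seen.

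**Figure D1:**
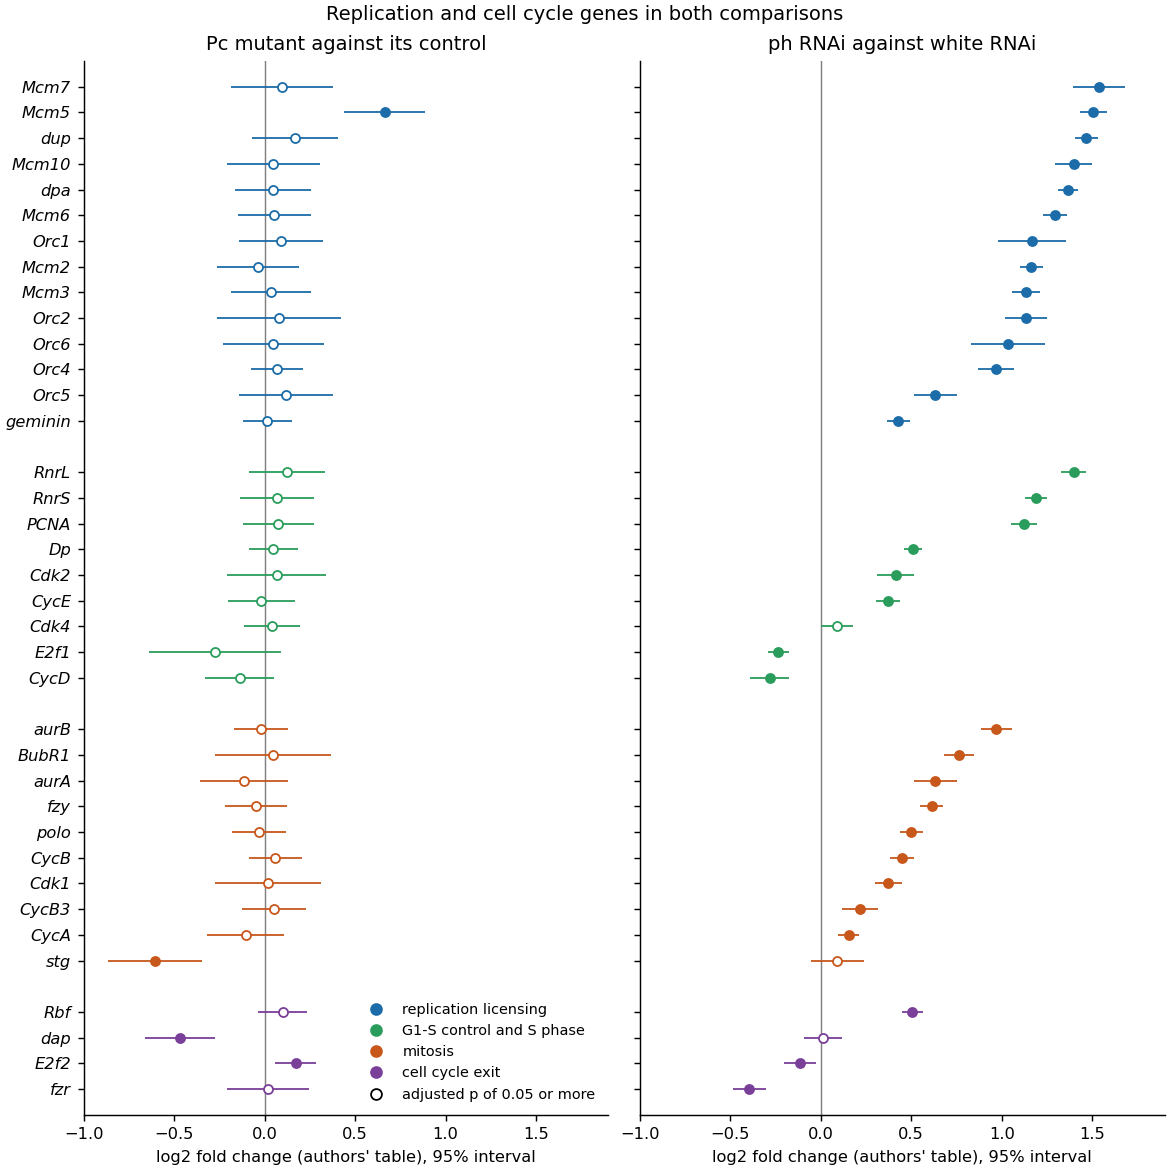
Log2 fold change of each of the 37 genes in the authors' deposited tables, for the Pc mutant against its control (left) and ph RNAi against white RNAi (right), with 95% intervals from the authors' standard errors. Filled points have an adjusted p under 0.05 and colours mark the roles. All 14 licensing genes lie at or above 0.43 with ph RNAi, while in the Pc mutant 13 of them lie between -0.04 and 0.17 and Mcm5 stands at 0.66.

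All 14 licensing genes were higher with ph RNAi, with a median log2 fold change of 1.17, or 2.24-fold, and the largest adjusted p among them was 3.40e-22 in the authors' deposited table. The 6 subunits of the Mcm2-7 helicase, which unwinds DNA at the fork, all rose by more than 1 log2 unit on the authors' scale, and 2 of them (Mcm5 and Mcm7) did so with ribosomal protein genes set to 0. The highest of them was Mcm7 (3L, 8891596 to 8894310, dm6), 2.91-fold higher with a 95% interval of 2.63 to 3.21, from a log2 fold change of 1.54 ± 0.07 in the authors' deposited table. Mcm5 followed with 1.51 ± 0.04, dpa (the fly Mcm4) with 1.37 ± 0.03 and Mcm6 with 1.30 ± 0.03 in the authors' deposited table. Mcm2 had 1.16 ± 0.03 and Mcm3 1.13 ± 0.04 in the authors' deposited table, so that the whole helicase lay in a range of 1.13 to 1.54. The 95% intervals of Mcm2 and Mcm3 lay wholly below those of Mcm5 and Mcm7. Mcm7 shares 2205 bp with the antisense gene asRNA:CR45871, and because no source used here says whether reads were counted by strand, reads of the pair cannot be told apart here.

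Factors that load or activate the helicase moved in the same direction. The loading factor dup was 2.77-fold higher (log2 fold change 1.47 ± 0.03), and Mcm10, which helps start the fork, was 2.64-fold higher (1.40 ± 0.05) in the authors' deposited table. Among subunits of the origin recognition complex, Orc1 (1.17 ± 0.10), Orc2 (1.13 ± 0.06) and Orc6 (1.03 ± 0.10) passed 1 log2 unit in the authors' deposited table. Orc4 stood just below it (0.97 ± 0.05), and Orc5 was the lowest of the 5 subunits (0.63 ± 0.06) in the authors' deposited table. The inhibitor geminin had the smallest rise of the licensing genes, 1.35-fold with a 95% interval of 1.29 to 1.41 (log2 fold change 0.43 ± 0.03) in the authors' deposited table. The helicase and its loader thus changed more than the inhibitor of loading, with dup and geminin intervals that do not overlap.

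Among the 9 genes of G1-S control and S phase, 6 were higher, 2 were lower and 1 was not called with ph RNAi, with a median log2 fold change of 0.41. Genes of DNA synthesis led. RnrL and RnrS, the large and small subunits of ribonucleotide reductase, which makes deoxynucleotides, had log2 fold changes of 1.40 ± 0.04 and 1.19 ± 0.03 in the authors' deposited table. PCNA, the sliding clamp of DNA polymerase, was 2.18-fold higher (1.12 ± 0.04) in the authors' deposited table. The regulators changed less: Dp had 0.51 ± 0.03, Cdk2, the kinase that starts S phase, 0.41 ± 0.05, and its partner CycE 0.37 ± 0.03 in the authors' deposited table. E2f1, the activator of S phase genes, was lower by contrast, at -0.23 ± 0.03 (0.850-fold), in the authors' deposited table. CycD, the cyclin that partners Cdk4, was also lower, at -0.28 ± 0.05, and Cdk4 itself was not called (0.09 ± 0.04, adjusted p = 0.0643) in the authors' deposited table. The 3 highest of the 9 are thus RnrL, RnrS and PCNA, and the 3 at the bottom are E2f1, CycD and Cdk4.

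Of the 10 mitotic genes, 9 were higher and none was lower with ph RNAi, with a median log2 fold change of 0.47 and none at 1 or more. The kinase aurB, of the chromosomal passenger complex, rose most (0.97 ± 0.04, or 1.96-fold), followed by BubR1 of the spindle checkpoint (0.76 ± 0.04) in the authors' deposited table. The centrosomal kinase aurA (0.63 ± 0.06), fzy, the Cdc20 activator of the anaphase-promoting complex (0.61 ± 0.03), and polo (0.50 ± 0.03) came next in the authors' deposited table. The mitotic kinase and its cyclins changed least among those called: CycB had 0.45 ± 0.03, Cdk1 0.37 ± 0.04, CycB3 0.22 ± 0.05 and CycA 0.15 ± 0.03 in the authors' deposited table. The phosphatase stg, the fly Cdc25 that activates Cdk1 at mitosis, was not called, at 0.09 ± 0.07 with a 95% interval of 0.963 to 1.18-fold in the authors' deposited table. CycA shares 1815 bp with CG7264, and Cdk2 shares 1090 bp with CG17267, so counts of these pairs are uncertain in the same way as those of Mcm7.

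The 4 genes of cell cycle exit did not move one way with ph RNAi. Rbf was 1.42-fold higher (log2 fold change 0.51 ± 0.03), while fzr, the Cdh1 activator of the anaphase-promoting complex that keeps mitotic cyclins low in G1, was 0.760-fold (-0.40 ± 0.05) in the authors' deposited table. The repressor E2f2 was slightly lower (-0.11 ± 0.05, adjusted p = 0.0205), and dap, the fly inhibitor of CycE-Cdk2 that is made as cells leave the cycle, was not called (0.01 ± 0.05, adjusted p = 0.873) in the authors' deposited table. The interval for dap ran from 0.936 to 1.08-fold.

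**Figure D2:**
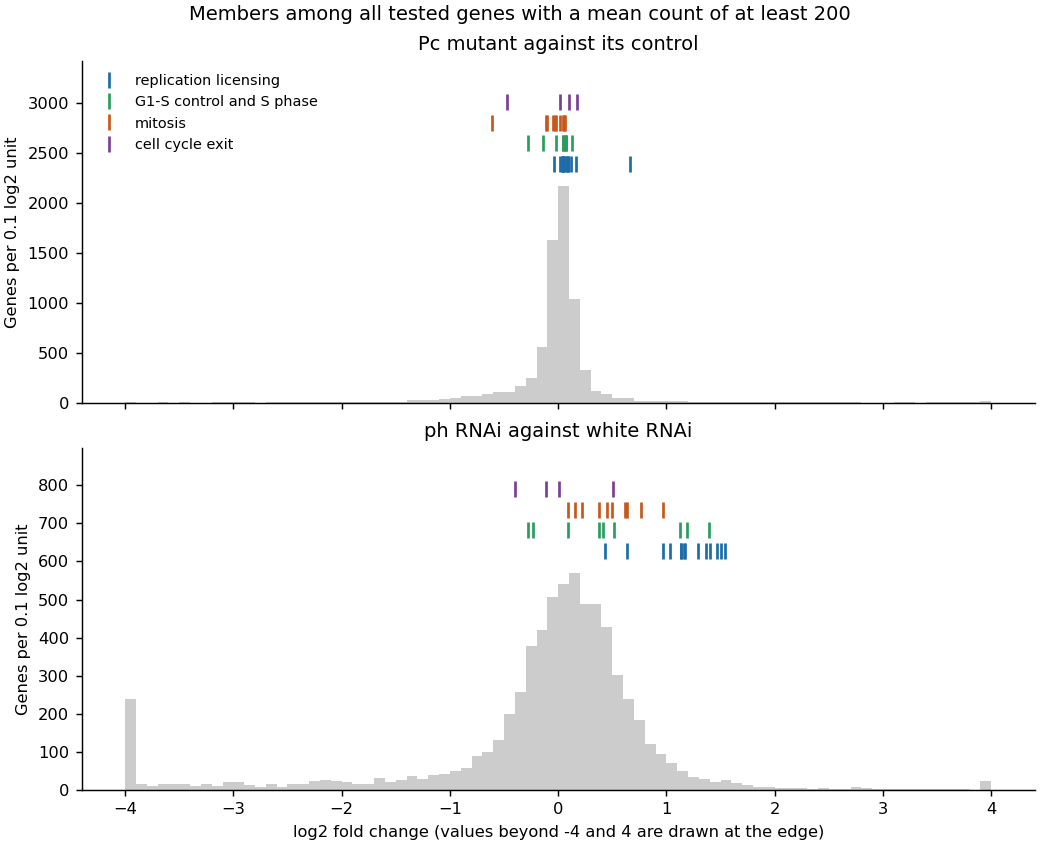
Histogram of log2 fold changes of tested genes with mean counts of 200 or more, with values beyond -4 and 4 drawn at the edge, for the Pc mutant (above) and ph RNAi (below). Coloured ticks mark the 37 genes by role. With ph RNAi the licensing ticks reach 1.54, far right in the histogram, whereas in the Pc mutant most ticks sit at its centre.

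Placed among the 6780 tested genes with mean counts of 200 or more, Mcm7 lay above 98.1% of log2 fold changes with ph RNAi, Mcm5 above 97.9% and dup above 97.8%. RnrL lay above 97.6%, while aurB lay above 94.6%, CycE above 72.6% and CycA above 56.6%. CycB lay above 78.1%, and geminin, the lowest of the licensing genes, above 76.7%. How far the smaller increases hold depends on the scale of the comparison. The 88 tested ribosomal protein genes had a median log2 fold change of 0.39 in the same deposited table, and with that median set to 0, a choice made after values were seen, 23 of the 37 genes were higher and 9 were lower. The count of genes at 1 log2 unit or more fell to 5 of 37 on that scale (Mcm5, Mcm7, Mcm10, dup and RnrL), against 2.77% of all tested genes and 2.42% of those with mean counts of 200 or more, so that 2 of the 6 helicase subunits passed it. Of the 11009 tested genes, 1441 were higher and 6163 lower on that scale, against 3421 higher and 3845 lower on the authors' scale. Over called genes alone, 18.95% were higher on that scale, against 47.08% on the authors' scale. On that scale 13 of 14 licensing genes were still higher (median 0.78) and geminin was not called (0.04, adjusted p = 0.281). The mitotic genes then split into 5 higher and 3 lower, with CycA at -0.23, CycB3 at -0.17 and stg at -0.30, and Cdk1, CycE, Cdk2 and CycB were not called.

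Genes of the same processes outside the 37 moved alike in ph RNAi discs. Of 33 other replication factors tested, 31 were higher and 1 was lower, with a median log2 fold change of 1.07 and 19 at 1 or more. They included thymidylate synthase Ts (1.94 ± 0.06), the checkpoint adaptor Claspin (1.55 ± 0.04), and RPA2 (1.46 ± 0.04) and RpA-70 (1.11 ± 0.03) of the protein that coats single-stranded DNA, in the authors' deposited table. The lower one was chif (-0.17 ± 0.02), the regulatory partner of the Cdc7 kinase, in the authors' deposited table. Of 39 other mitotic genes, 32 were higher and 1 was lower, with a median of 0.42, close to that of the mitotic genes above. Incenp, of the same complex as aurB, had 0.92 ± 0.03, feo, of the central spindle, 0.69 ± 0.03, and pav, needed for cytokinesis, 0.81 ± 0.03 in the authors' deposited table, while Mad1 was the lower one at -0.17 ± 0.05. Of 18 other regulators, 13 were higher and 5 lower, with a median of 0.33. The growth regulator Myc rose most of these (1.10 ± 0.07), with mip120 (0.52 ± 0.04) and the checkpoint kinase lok (0.68 ± 0.06) also higher in the authors' deposited table. The lowest was ago, the fly Fbw7, which targets CycE for destruction (-0.83 ± 0.03), and Cul1 (-0.26 ± 0.03) and the checkpoint kinase grp (-0.60 ± 0.07) were lower too in the authors' deposited table. With the ribosomal median of 0.39 set to 0, the medians of these 3 lists would lie 0.39 lower.

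Photoreceptor and furrow markers, and most genes of eye disc identity, moved the other way in the same discs. All 11 photoreceptor and furrow markers were lower with ph RNAi, with a median log2 fold change of -4.94, from -6.14 to -1.76, among them elav (-1.76 ± 0.05) and chp (-3.49 ± 0.12) in the authors' deposited table. Of 10 genes of eye disc identity, 9 were lower, among them dan (-2.13 ± 0.09) and hth (-1.94 ± 0.09), and Optix was higher (0.84 ± 0.07), with a median of -2.27, in the authors' deposited table. All 5 haemocyte markers were lower (median -2.87), and so were 4 of 5 glial, 3 of 5 neuroblast and 3 of 6 muscle markers, with insc (2.06) of the neuroblast list and 1 glial marker higher. None of 5 fat body markers was called, and 2 of 4 tested germline markers were lower. In bulk discs, fewer cells of a type and less RNA per cell cannot be told apart, and the part of these markers in the rise of replication genes was not tested.

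**Figure D3:**
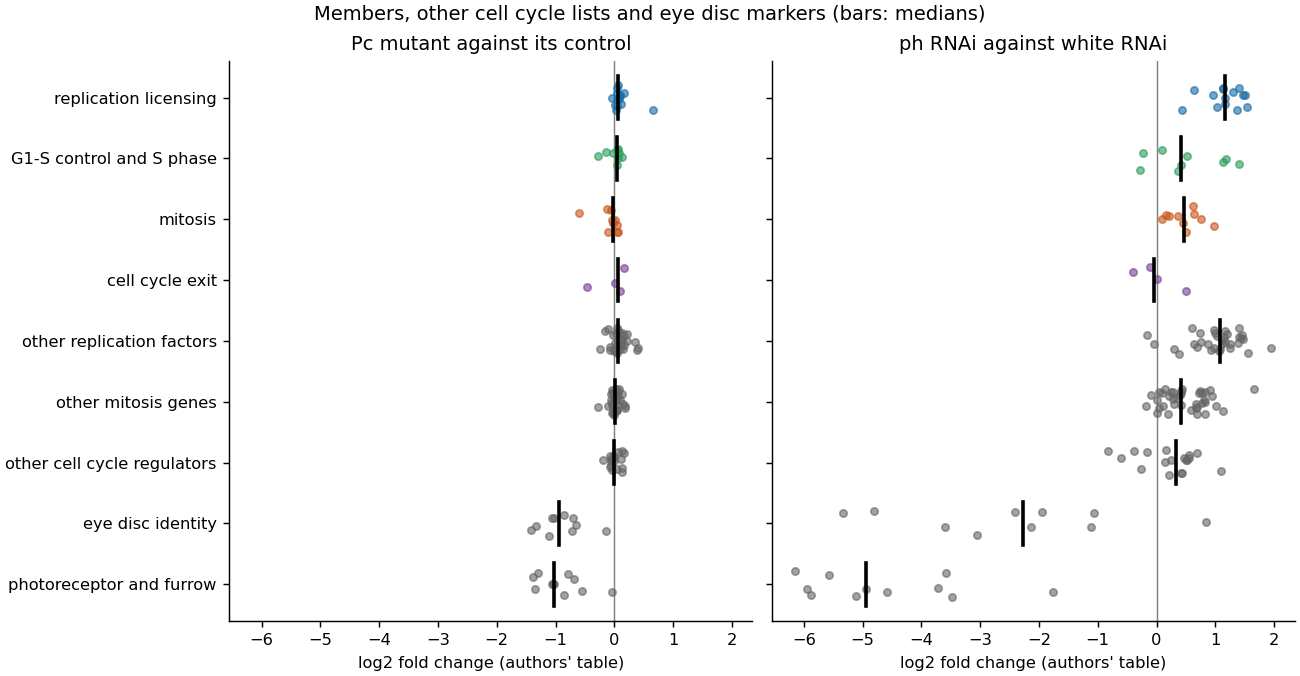
Log2 fold changes in the authors' deposited tables for the 37 genes by role, for 3 lists of other cell cycle genes and for 2 lists of eye disc markers, in the Pc mutant (left) and with ph RNAi (right). Each point is a gene and each bar a median. With ph RNAi the medians of licensing genes (1.17) and other replication factors (1.07) lie far from those of eye identity (-2.27) and photoreceptor markers (-4.94); in the Pc mutant the cell cycle medians lie between -0.03 and 0.06.

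In the Pc mutant, most of the 37 genes stayed near 0. At the authors' adjusted p under 0.05, 2 were higher, Mcm5 and E2f2, 2 were lower, stg and dap, and 33 were not called. Over all tested genes 3.64% were higher and 6.24% lower, and over those with mean counts of 200 or more 4.24% and 7.28%, so the counts of calls lie close to the background. The 33 genes that were not called had log2 fold changes from -0.28 to 0.17, and the smallest adjusted p among them was 0.479 in the authors' deposited table. Their 95% intervals stayed between 0.642 and 1.34-fold, and for the 13 licensing genes that were not called between 0.833 and 1.34-fold. The median log2 fold change was 0.06 for licensing genes, 0.05 for G1-S control and S phase, -0.03 for mitosis and 0.06 for exit genes, against 0.02 for all tested genes. With ribosomal protein genes set to 0, 308 of the 11297 tested genes were higher in the Pc mutant and 970 were lower. Of the 37, 3 were still called on that scale, Mcm5 higher and stg and dap lower. Over called genes alone, 24.1% were higher on that scale, against 36.83% on the authors' scale. Standard errors of the 37 genes were wider here (median 0.11) than with ph RNAi (median 0.04), with 2 mutant replicates against 4 replicates in each RNAi group.

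The gene stg fell most, to 0.656-fold with a 95% interval of 0.548 to 0.787 (log2 fold change -0.61 ± 0.13, adjusted p = 0.000188) in the authors' deposited table. The inhibitor dap fell to 0.722-fold with a 95% interval of 0.633 to 0.825 (-0.47 ± 0.10, adjusted p = 6.63e-05) in the authors' deposited table. One activates the mitotic kinase and the other blocks S phase, so the 2 that fell act at different steps of the cycle. E2f2 rose by little, 1.13-fold (0.17 ± 0.06, adjusted p = 0.0387), in the authors' deposited table, and was no longer called when log2 fold changes were centred on the median of all genes (adjusted p = 0.0767). E2f1 had the largest change among genes not called, at -0.28 ± 0.19, with the widest standard error of the 37, by the authors' deposited table. Among the other lists, 1 of 33 replication factors was called, Cdc6, a loader of the helicase (0.35 ± 0.10), with none of 39 mitotic genes, and Myb (0.16 ± 0.05) and ago (-0.19 ± 0.05) of 18 regulators, in the authors' deposited table. Eye markers were lower here as well: 8 of 11 photoreceptor and furrow markers (median -1.03), among them elav (-0.86 ± 0.13) and sca (-0.68 ± 0.11), and 9 of 10 genes of eye disc identity (median -0.95), among them dan (-1.42 ± 0.28) and toy (-1.07 ± 0.21) in the authors' deposited table. Of the other lists, 3 of 6 muscle markers (median -0.65) and 4 of 5 fat body markers (median -1.96) were lower. So were 2 of 5 glial, 1 of 5 germline and 1 of 5 neuroblast markers, while 1 neuroblast marker was higher. None of 5 haemocyte markers was called. The part of these markers in the fall of stg and dap was not tested.

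Of the 14 listed licensing genes, only Mcm5 (3R, 10788524 to 10791150, dm6) was called in the Pc mutant. Mcm5 was at 1.58-fold with a 95% interval of 1.35 to 1.85 (log2 fold change 0.66 ± 0.11, adjusted p = 6.59e-07) in the authors' deposited table. The other 5 subunits of its helicase had log2 fold changes from -0.04 to 0.09 in the Pc mutant. Its neighbours on 3R were higher with it. Between MED7, 29.3 kb to one side, and CG6621, 102 kb to the other, 17 of 23 other tested genes with mean counts of 200 or more were higher and none was lower, with a median log2 fold change of 0.48. The 17 had a median of 0.51, with Cap-H2 (0.72 ± 0.14), Fdh (0.65 ± 0.07), Art1 (0.64 ± 0.14) and Leash (0.62 ± 0.08) beside Mcm5 in the authors' deposited table. Outside this stretch, within 600 kb, 1 of 43 such genes was higher and 3 were lower, with a median of 0.00. The stretch was marked off after values were seen, by its outermost genes called higher. With ph RNAi the same stretch held 8 higher and 9 lower of 21 genes, with a median of 0.00. In a fixed window of 100 kb to each side, 15 of 24 such genes around Mcm5 were higher in the Pc mutant and 1 was lower. In the same window around stg, E2f2 and dap, 0 of 10, 0 of 18 and 1 of 4 were higher, and 1 each was lower. Since Mcm5 does not stand apart from its neighbours, its rise in the Pc mutant and that of the stretch cannot be told apart.

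**Figure D4:**
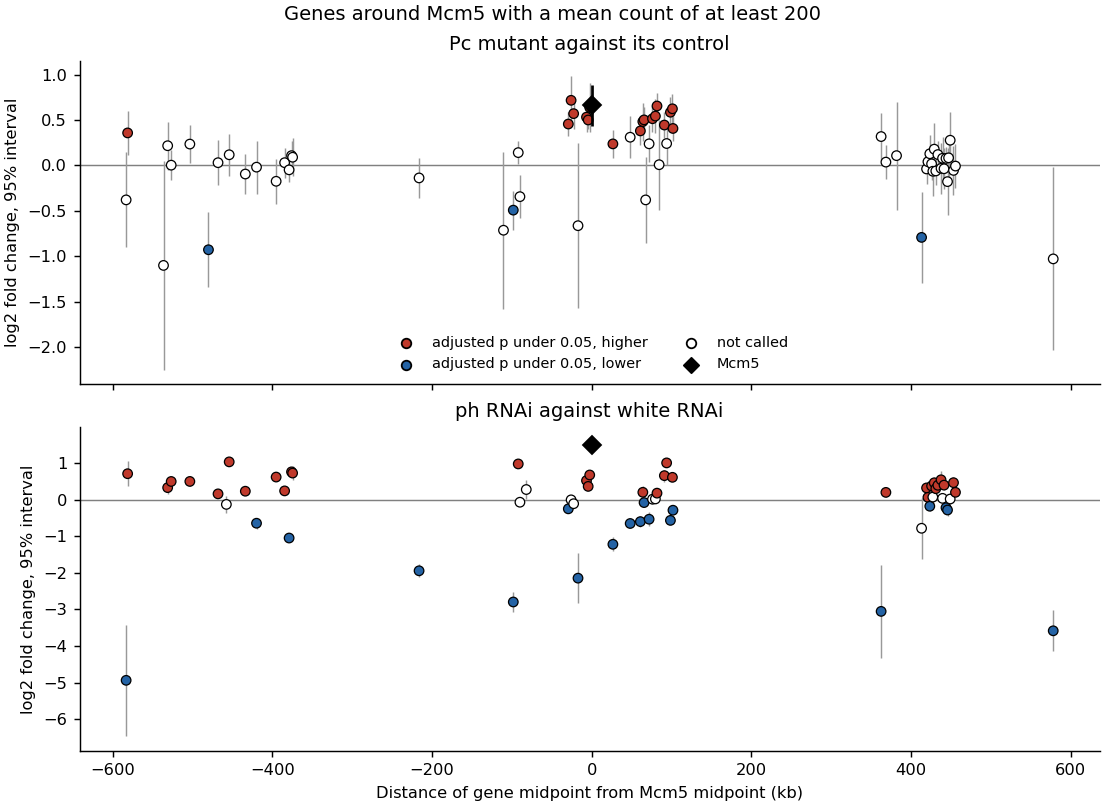
Log2 fold change with 95% interval of tested genes with mean counts of 200 or more, by distance of their midpoint from that of Mcm5 (diamond), in the Pc mutant (above) and with ph RNAi (below). Red and blue points have an adjusted p under 0.05. In the Pc mutant, red points cluster from -29.3 to 102 kb near the height of Mcm5, while the same stretch is mixed with ph RNAi.

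The responses of the 2 comparisons differed for most of the genes. In a z test of the difference of the log2 fold changes in the authors' deposited tables, Pc mutant minus ph RNAi, adjusted by Benjamini-Hochberg over 11672 genes, 32 of the 37 differed, against 45.1% of all genes and 57.8% of those with mean counts of 200 or more in both tables. Of these, 30 were lower in the Pc mutant, against 20.4% of all genes and 31.8% of those with such counts, and 2 were higher, against 24.8% and 26.1%. The test takes the comparisons to have no library in common, which the labels do not state. All 14 licensing genes were lower in the Pc mutant, with a median difference of -1.09. The widest was that of Mcm7, with 0.09 ± 0.14 in the Pc mutant and 1.54 ± 0.07 with ph RNAi (difference -1.45 ± 0.16, adjusted p = 7.20e-18). Mcm5, although called in both, still differed by -0.84 ± 0.12 (adjusted p = 2.85e-11).

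Beyond licensing, 6 of 9 genes of G1-S control and S phase and 8 of 10 mitotic genes were lower in the Pc mutant than with ph RNAi. The genes stg (-0.70 ± 0.15, adjusted p = 2.22e-05) and dap (-0.48 ± 0.11, adjusted p = 7.28e-05) were lower in the Pc mutant and not called with ph RNAi on the authors' scale. With ribosomal protein genes set to 0, both were called lower in both comparisons. On that scale stg had -0.68 in the Pc mutant and -0.30 with ph RNAi, and dap had -0.54 and -0.38, so their fall is not particular to the Pc mutant there. The 2 that were higher in the Pc mutant were fzr (0.41 ± 0.13, adjusted p = 0.00294) and E2f2 (0.28 ± 0.07, adjusted p = 0.000467), both lower with ph RNAi. The difference did not pass the threshold for E2f1 (-0.04 ± 0.19), CycD (0.14 ± 0.11), Cdk4 (-0.05 ± 0.09), CycA (-0.26 ± 0.11, adjusted p = 0.0503) and CycB3 (-0.16 ± 0.10), which does not show that these 5 respond alike. With both tables centred on ribosomal protein genes, 25 of the 37 differed, and the share of all genes that differed on that scale was not computed. The difference turned positive there for Cdk4 (0.26), and also for E2f1, CycA and CycB3.

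PSC peaks lay at more of the 37 genes than Su(z)12 peaks did. A peak of the merged lists, which the series' design text describes as made from all replicates, overlapped the gene or the 1 kb around it by at least 1 bp at 27 of the 37 for PSC. The share over all 13922 protein-coding genes was 30.3%, and over those with mean counts of 200 or more in the table for Pc it was 46%. Su(z)12 peaks lay at 9 of the 37, against 10.4% of all protein-coding genes and 15.2% of those with such a count. All 9 also had a PSC peak, against 9.65% and 14.4%. They were Mcm7, E2f1, CycD, Cdk4, Cdk2, CycB, CycB3, fzr and E2f2. Neither protein had a peak at the other 10: Mcm2, Mcm3, dpa, Mcm6, Orc1, Orc6, geminin, RnrS, Dp and BubR1.

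By role, PSC peaks were found at 7 of 14 licensing genes, 7 of 9 genes of G1-S control and S phase, 9 of 10 mitotic genes and all 4 exit genes, and Su(z)12 peaks at 1, 4, 2 and 2 of them. Of the licensing genes, 7 had no PSC peak, and the other helicase subunits beside Mcm5 and Mcm7 had none. The share with a merged PSC peak was 46% over protein-coding genes with mean counts of 200 or more. Whether the peaks are linked to the response to ph RNAi was not tested. Few of the peaks were found in each replicate. Of 36 PSC peaks at the genes, 11 were overlapped by a peak in both replicate lists, 15 in 1 and 10 in neither, and over all 5999 merged PSC peaks on the chromosome arms 43.2% were found in both. Counting only peaks found in both, 9 genes had PSC (fzr, CycB, Rbf, Cdk4, CycD, Mcm7, Orc4, polo and CycE), against 16.8% of protein-coding genes and 25.7% of those with mean counts of 200 or more. For Su(z)12, 3 genes did (Mcm7, Cdk4 and CycB), against 4.7% and 7.01%.

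**Figure D5:**
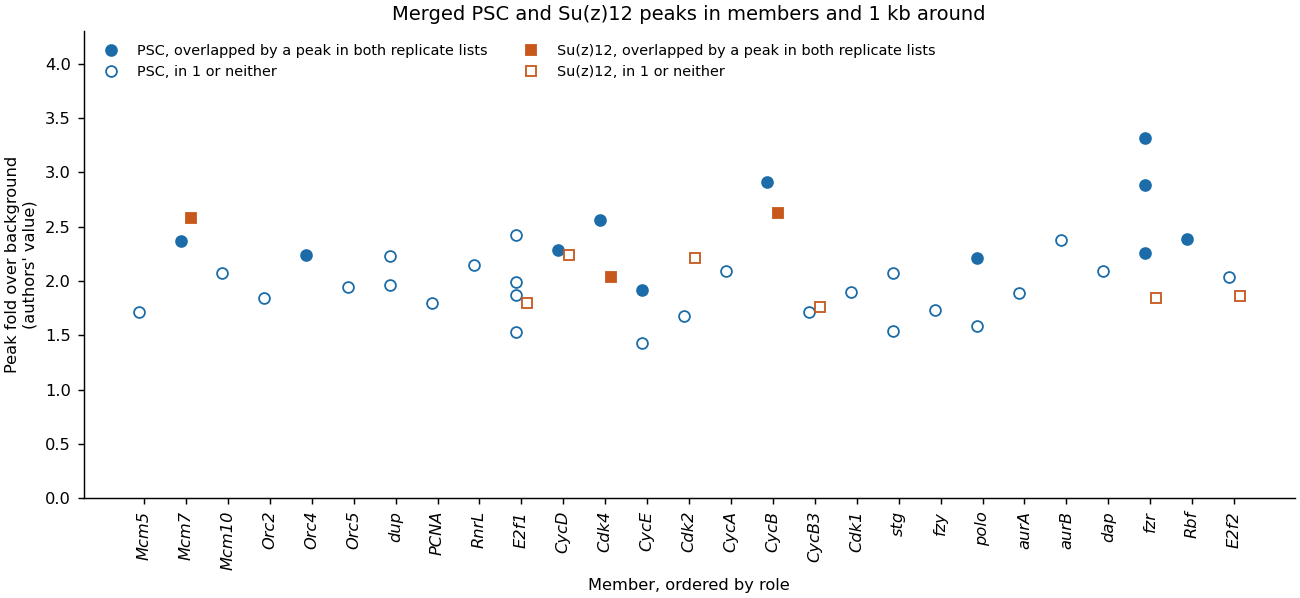
Fold over background, as the authors' peak lists give it, of each merged PSC peak (circles) and Su(z)12 peak (squares) at the 27 genes with a peak, ordered by role. Filled symbols were overlapped by a peak in both replicate lists. Most folds lie near 2, and fzr carries the highest PSC peak, at 3.32.

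The peaks were of ordinary height. The authors' fold over background had a median of 2.06 over the 36 PSC peaks, against 1.97 over all PSC peaks, and 1 of the 36 reached 3, against 7.78% of all. That peak lies at fzr (X, 4679422 to 4679921, dm6), at one end of the gene with its summit 75 bp outside it, and with a fold of 3.32. The gene fzr has 2 more PSC peaks, at X 4666968 to 4667354 (fold 2.88) and, inside the gene, at X 4671087 to 4671601 (fold 2.26), and all 3 were found in both replicates. CycB had the next strongest peaks, PSC at 2R 22806860 to 22807298 (fold 2.91) with Su(z)12 at 2R 22806928 to 22807220 (fold 2.63), both found in both replicates. At Cdk4, PSC (2R, 16585703 to 16586186, fold 2.56) and Su(z)12 (2R, 16585744 to 16586142, fold 2.03) overlapped as well. At Mcm7, PSC (3L, 8891120 to 8891447, fold 2.37) and Su(z)12 (3L, 8891135 to 8891432, fold 2.58) overlapped, with summits 81 and 105 bp from the neighbouring gene dally.

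Many of the peaks have another gene close by. Of the 36 PSC summits, 30 lay within 1000 bp of an end of the member gene. The 1 kb window around mostly short genes largely set that count in advance, so it says nothing about where PSC binds. Of the 36 peaks, 28 had another gene within 1000 bp, and these cannot be given to a single gene. Neither share was computed over all PSC peaks. The annotation used carries no strand, so start and end of a gene were not told apart. The single PSC peak at Mcm5 (3R, 10788197 to 10788583, fold 1.71) was found in neither replicate list, and its summit lay 59 bp from Art1. Peaks with a summit well inside a gene were rarer. E2f1 had 2 such PSC peaks, at 3R 21648300 to 21648570 (fold 1.53) and 3R 21649778 to 21650125 (fold 2.43), each found in replicate 1 only. CycE had 2, at 2L 15743104 to 15743568 (fold 1.91), found in both replicates, and 2L 15745049 to 15745291 (fold 1.43). At stg (3R, 29251582 to 29251844, fold 2.07, and 3R, 29255194 to 29255451, fold 1.54) and dap (2R, 9712143 to 9712514, fold 2.09), the 2 genes that fell in the Pc mutant, each PSC peak was found in replicate 1 only and no other gene lay within 1000 bp. Neither had a Su(z)12 peak. Binding was measured in W1118 Oregon-R discs alone, so whether it changed in Pc mutant or ph RNAi discs was not measured.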

How the data were processed

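RNA-seq and ChIP-seq files of 14 of the 46 samples were used (10 RNA, 4 ChIP), and the other samples were not analysed here. The series has 2 deposited fold change tables with the columns of DESeq2 and 6 deposited peak lists in the MACS2 format, per the file headers and columns. Per the submitters' processing notes, the build was dm6, and the tools named include STAR, HTSeq and DESeq2 1.22.1 for RNA and Bowtie2, SAMtools and MACS2 2.1.1.20160309 for ChIP. The deposited mean normalized count of a gene is a signal averaged over libraries, so depth per sample is unknown and no counting interval was computed. The log2 fold changes and their standard errors are the authors', and their ratio equals the deposited statistic within 0.001 for 100% of genes. The authors also deposited each gene's p-value and adjusted p-value, per the file headers. The fold of each peak over background (a ratio), its score and its -log10 q value are the authors' own deposited values, used only to describe peaks within their list. The -log10 q exceeded 3 in the merged lists.

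Genes were called at an adjusted p under 0.05. Differences between comparisons used a z test on the root of the summed squared standard errors, adjusted by Benjamini-Hochberg and tested on simulated data. Intervals are the log2 fold change ± 1.96 standard errors. Gene positions came from the Release 6 annotation, without strand. Of 181 list genes, 169 matched by deposited symbol and 10 by current symbol; Orc3 and dUTPase were not matched. The 37 genes, the 3 pathway lists (92 genes) and the marker lists (52 genes) were chosen with earlier results of these data known. Every one of the 37 is named, with up to 3 called genes per direction of each pathway list and up to 2 of each marker list by smallest adjusted p (4 replication factors tied at an adjusted p of 0 with ph RNAi and all 4 are named); neighbours of Mcm5 and insc were named after their values were seen. Promoter motifs were not searched, as no sequence was used here. Python 3.11.15, pandas 2.3.3, NumPy 2.4.6, SciPy 1.17.1 and matplotlib 3.10.9 were used.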

Additional observations from a re-analysis of the deposited data

Results flagged for a closer look

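The log2 fold change of 32 genes differed between the Pc mutant and ph RNAi by the z test of the difference, at an adjusted p under 0.05 over 11672 genes. Each value is the Pc mutant minus ph RNAi difference in log2 units with its standard error, from the authors' deposited tables, and the test takes the comparisons to have no library in common. Among all genes 45.1% differed. Of the Mcm2-7 helicase, the differences were Mcm7 (-1.45 ± 0.16), dpa (-1.32 ± 0.11), Mcm6 (-1.24 ± 0.11), Mcm2 (-1.20 ± 0.12), Mcm3 (-1.10 ± 0.12) and Mcm5 (-0.84 ± 0.12). Of the other licensing genes they were Mcm10 (-1.35 ± 0.14), dup (-1.30 ± 0.13), Orc1 (-1.08 ± 0.15), Orc2 (-1.05 ± 0.18), Orc6 (-0.99 ± 0.18), Orc4 (-0.90 ± 0.09), Orc5 (-0.52 ± 0.15) and geminin (-0.41 ± 0.08). All 14 are negative, that is lower in the Pc mutant. In G1-S control and S phase they were RnrL (-1.27 ± 0.11), RnrS (-1.12 ± 0.11), PCNA (-1.05 ± 0.11), Dp (-0.46 ± 0.07), CycE (-0.39 ± 0.10) and Cdk2 (-0.35 ± 0.15), again all lower in the Pc mutant. In mitosis they were aurB (-0.99 ± 0.09), aurA (-0.75 ± 0.14), BubR1 (-0.72 ± 0.17), stg (-0.70 ± 0.15), fzy (-0.66 ± 0.09), polo (-0.53 ± 0.08), CycB (-0.39 ± 0.08) and Cdk1 (-0.36 ± 0.16). In cell cycle exit they were dap (-0.48 ± 0.11), Rbf (-0.41 ± 0.08), E2f2 (0.28 ± 0.07) and fzr (0.41 ± 0.13), the last 2 higher in the Pc mutant. The largest adjusted p of the 32 was 0.0484, for Cdk1. At a threshold of 0.01, 30 genes differed, without Cdk2 and Cdk1, and the share of all genes at that threshold was not computed. The groups also differ in genotype, in the number of replicates and possibly in the controls used, so what sets the responses apart was not tested.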

How the results depend on the processing

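With the Pc mutant, the 2 genes called higher became 1, without E2f2, at an adjusted p under 0.01, with an absolute log2 fold change of at least 0.3, and with values centred on the median of all genes, of ribosomal protein genes or of genes with mean counts of 200 or more. The 2 called lower were called under every alternative run. With ph RNAi, the 30 called higher ranged from 23 to 31 genes. The 4 called lower became 1 at an absolute log2 fold change of at least 0.3 and 9 with centring on ribosomal protein genes. That centring, and the one on genes with mean counts of 200 or more, were chosen after seeing the data. Centring on ribosomal protein genes moved log2 fold changes by 0.39 with ph RNAi. The sign turned for Cdk4 (-0.30), CycE (-0.0152), CycA (-0.23), CycB3 (-0.17), Cdk1 (-0.0149), stg (-0.30) and dap (-0.38). Of these, only CycA and CycB3 went from called higher to called lower. CycE and Cdk1 lost their call, and Cdk4, stg and dap, not called on the authors' scale, were called lower. For Pc mutant minus ph RNAi, the sign turned for Cdk4 (0.26), and also for E2f1, CycA and CycB3. Over all called genes this centring moved the share called higher to 24.1% against 36.83% in the Pc mutant (308 against 411 genes), and to 18.95% against 47.08% with ph RNAi (1441 against 3421 genes, with 6163 against 3845 lower). The 32 differences ranged from 25 to 34, and the share of all genes that differ was computed for the main setting only. An absolute log2 fold change of at least 0.3 gave 2514 genes called higher with ph RNAi, and an adjusted p under 0.01 gave 255 higher and 452 lower in the Pc mutant.

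Peak counts moved most. The list of a single replicate gave 14 to 16 genes with PSC, 5 to 7 with Su(z)12 and 4 to 6 with both. Peaks found in both replicates gave 9, 3 and 3 genes, and a fold of at least 3 gave 1, 0 and 0. In the gene body alone, Su(z)12 lay at 2 genes and both proteins at 2. Shares over all protein-coding genes were not computed for single replicates, for the fold limit or for the gene body. The counts under those settings therefore cannot be set against a background. No paired analysis was possible because the deposited tables hold no values per sample. Leaving out a single RNA replicate was not run for the same reason, and depth per sample, which limits the smaller changes, is unknown.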

Other observations

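The 37 genes lie on all 5 major arms, 13 on 2R, 8 each on 2L and 3R, 5 on X and 3 on 3L. Neighbours here are the 5 nearest genes on each side with mean counts of 50 or more. Around dap, 3 of them were called in the Pc mutant, where 3.64% of all tested genes were higher and 6.24% lower. Mmp2, a matrix metalloproteinase 66.8 kb from dap, was lower in the Pc mutant (-0.78 ± 0.14) and with ph RNAi (-4.64 ± 0.52) in the authors' deposited tables. On the other side, CG1688, 72.3 kb away, was higher in the Pc mutant (1.49 ± 0.38), and CG1698, 81.4 kb away, was higher in both comparisons (1.12 ± 0.28 in the Pc mutant and 1.49 ± 0.17 with ph RNAi) in those tables. None of the neighbours of stg or of E2f2, picked in the same way, was called in the Pc mutant. With ph RNAi, the nearest such neighbour of stg, SP1029, 6.11 kb away, was lower (-5.92 ± 0.69), while stg was not called. These neighbours were named after their values were seen.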
